A study of Homo sapiens with 6 samples.

Results

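The TAM family is a set of 3 receptor tyrosine kinases, AXL, TYRO3 and MERTK, with the 2 vitamin K-dependent ligands GAS6 and PROS1. Its transcripts were followed in LX-2 cells, an established line of human hepatic stellate cells, given TGF-β1 with or without compound 11. The members were taken by gene symbol. All 5 were found among the 20332 genes listed, and all 5 reached the level needed for testing. Compound 11 lowered AXL 1.69-fold and GAS6 1.36-fold and raised MERTK 1.70-fold. TYRO3 and PROS1 did not pass the test.

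Stellate cells wrap the sinusoids of the liver, and TGF-β1 drives them towards a contractile state that deposits matrix. Both groups received TGF-β1. In 3 libraries it was given with the solvent DMSO (DMSO libraries) and in 3 with compound 11 at 10 µM (compound 11 libraries), for 48 h. The compound is known here only by its number, the series title concerns agents tested against liver fibrosis, and untreated cells without TGF-β1 are not part of the comparison. Whether the replicates of a group came from separate cultures is not stated, and the p-values therefore reflect only how these libraries vary, which may be technical.

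TAM receptors carry immunoglobulin-like and fibronectin type III domains outside the cell and a tyrosine kinase inside it. GAS6 and protein S, the product of PROS1, bridge the receptors to phosphatidylserine on dying cells or vesicles, which requires that their Gla domains be carboxylated with the help of vitamin K. GAS6 binds all of the receptors and AXL most tightly, whereas protein S acts on TYRO3 and MERTK. The receptors signal through PI3K and AKT among other routes. In liver, AXL and GAS6 are known from activated stellate cells, and MERTK mainly from macrophages, where it serves the uptake of apoptotic cells.

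The values are TPM (transcripts scaled to a total of 1000000 per library), so levels are per transcript length and can be set beside each other between genes. Fold changes given as log2 are on the log2(TPM + 1) scale from limma, with standard errors (SE), 95% intervals and Benjamini-Hochberg adjusted p-values over 12067 tested genes, and the threshold was an adjusted p of 0.05. Libraries correlated across tested genes at 0.993 to 0.994 within groups and at 0.960 to 0.961 between them. Each library lists 14699 to 14830 genes above 0, and its sequencing depth is unknown. The stellate cell label was read against 14 markers. VIM stood at 6400 TPM, COL1A1 at 1132 TPM and ACTA2 at 176 TPM in the DMSO libraries, whereas LRAT, the retinol-esterifying enzyme of quiescent stellate cells, was at 0.00933 TPM and DES and DCN were listed at 0 in all 6 libraries. The markers themselves moved beside the falls of AXL and GAS6. With compound 11, ACTA2 fell to 6.28 TPM and COL1A1 to 102 TPM, and VIM rose to 7512 TPM. Of 9 markers tested 6 fell, 1 rose and 2 did not pass (median log2 fold change -1.35), where 24.3% of all tested genes were lower and 25.3% higher. The part of these markers in the changes of the TAM genes was not tested.

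AXL lies on chromosome 19 at 41219203 to 41261766 on the plus strand, TYRO3 on chromosome 15 at 41557675 to 41583586 on the plus strand, and MERTK on chromosome 2 at 111898479 to 112029561 on the plus strand. GAS6 lies on chromosome 13 at 113820549 to 113864067 on the minus strand and PROS1 on chromosome 3 at 93873033 to 93980003 on the minus strand (GRCh38, GENCODE v29). All are protein-coding. GAS6 shares 25196 bp with the antisense gene GAS6-AS1, and AXL shares 626 bp with an antisense gene. Whether the counting used strand is not stated, so reads of a gene and of its antisense partner cannot be told apart. PROS1 has the pseudogene PROS2P and TYRO3 the pseudogene TYRO3P, and how the counting divided reads between such copies is not known.

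The start regions of the 3 genes that passed the test are shown because AXL has been described as a GC-box promoter bound by SP1 and SP3. Each is a window of 300 bases, from 250 before to 50 after the annotated start (RefSeq, GRCh38.p14), written 5′ to 3′ on the gene's strand. Capitals mark the GC box, GGGCGG or its reverse complement CCGCCC.
AXL, chr19:41218973-41219272, plus strand: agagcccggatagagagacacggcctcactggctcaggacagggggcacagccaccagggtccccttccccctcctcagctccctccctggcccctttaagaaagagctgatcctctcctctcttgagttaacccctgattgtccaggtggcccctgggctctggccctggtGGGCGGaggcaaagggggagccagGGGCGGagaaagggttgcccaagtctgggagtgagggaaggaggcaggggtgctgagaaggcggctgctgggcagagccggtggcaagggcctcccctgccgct
GAS6, chr13:113864027-113864326, minus strand: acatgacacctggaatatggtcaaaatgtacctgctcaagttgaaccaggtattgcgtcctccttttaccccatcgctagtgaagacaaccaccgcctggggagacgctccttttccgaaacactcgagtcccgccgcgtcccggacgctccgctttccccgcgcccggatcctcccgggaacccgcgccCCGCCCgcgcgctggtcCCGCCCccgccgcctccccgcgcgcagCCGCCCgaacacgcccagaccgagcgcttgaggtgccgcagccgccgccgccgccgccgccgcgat
MERTK, chr2:111898357-111898656, plus strand: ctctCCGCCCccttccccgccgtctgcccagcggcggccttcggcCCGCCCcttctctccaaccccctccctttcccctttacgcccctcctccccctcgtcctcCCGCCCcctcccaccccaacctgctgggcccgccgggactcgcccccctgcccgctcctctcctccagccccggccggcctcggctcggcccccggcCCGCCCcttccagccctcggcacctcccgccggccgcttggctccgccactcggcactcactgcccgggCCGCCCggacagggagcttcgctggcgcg

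The AXL window held 2 GC boxes, the GAS6 window 3 and the MERTK window 5. Over all 35116 promoter windows of this length, 45.0% held at least 1. GC content was 66.0% in the AXL window, 69.0% in that of GAS6 and 78.3% in that of MERTK, and the median of all windows was 58.7%. GC boxes were thus in the windows of the genes that fell and of the gene that rose. For the members that did not pass, the PROS1 window held 2, the first TYRO3 window 3 and the second TYRO3 window none. RefSeq lists a second AXL start, on the plus strand at chromosome 19, whose window of the same length from 41226505 to 41226804 held no GC box and had a GC content of 53.7%. The AP-1 motif TGANTCA and the TEAD motif GGAATG, searched on both strands, were in none of the 3 windows shown, and 7.71% and 14.03% of all windows held them. The second AXL window had 1 TEAD match and no AP-1 match. The core of the hypoxia-inducible factor site, ACGTG or GCGTG on either strand, had 6 matches in the second AXL window, 1 in the GAS6 window and none in the first AXL window or that of MERTK, and 48.4% of all windows held it. The core TGGGGA of MZF1 had 1 match in the GAS6 window, and 27.99% of all windows held it. A match is a string of letters and not a binding site, and a missing match says nothing about a factor outside the window.

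AXL was the most abundant member in every library. In the DMSO libraries it stood at 478, 454 and 452 TPM, and in the compound 11 libraries at 273, 263 and 285 TPM. The groups were far apart, with SDs of 3.06% and 4.09% of their means. The mean fell from 461 TPM with an SD of 14.1 to 273 TPM with an SD of 11.2 (n = 3 per group), a log2 fold change of -0.75 ± 0.04 (SE; 95% interval -0.84 to -0.66; limma, Benjamini-Hochberg adjusted p = 4.88e-07). Of all tested genes 4.49% had a lower log2 fold change. AXL ranked 305 among all genes in the DMSO libraries and 529 in the compound 11 libraries.

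MERTK was the least abundant member and moved the other way. It stood at 4.36, 4.05 and 4.09 TPM in the DMSO libraries and at 6.02, 8.32 and 6.88 TPM in the compound 11 libraries. The groups did not overlap, and the compound 11 libraries were spread more widely, with an SD of 16.4% of their mean against 4.11%. The mean rose from 4.17 TPM with an SD of 0.171 to 7.07 TPM with an SD of 1.16 (n = 3 per group), a log2 fold change of 0.64 ± 0.13 (SE; 95% interval 0.35 to 0.92; limma, Benjamini-Hochberg adjusted p = 0.00273). Compound 11 replicate 2 was the highest library, and without it the log2 fold change was 0.53 (adjusted p = 0.00973).

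Because MERTK is known from macrophages, 11 macrophage markers were read beside it. Their summed level ran from 5.54 to 5.65 TPM in the DMSO libraries and from 6.67 to 6.96 TPM in the compound 11 libraries. Most of it was CSF1R, at 3.24 and 5.09 TPM, which passed as higher (log2 fold change 0.52, limma, Benjamini-Hochberg adjusted p = 0.00652). CD14, the next most abundant, was at 1.47 and 1.01 TPM and did not pass (limma, Benjamini-Hochberg adjusted p = 0.124), although its groups of libraries did not overlap. PTPRC, the common leukocyte antigen, was at 0.236 and 0.324 TPM, and C1QB, C1QC and VSIG4 were listed at 0 in all 6 libraries. Endothelial cells also carry TAM receptors. The summed level of 8 endothelial markers ran from 1.93 to 2.28 TPM in the DMSO libraries and from 7.76 to 8.58 TPM in the compound 11 libraries. It was made up mainly of KDR and PECAM1, which both rose. The others were too low to be tested. VWF was at 0.217 and 0.381 TPM, ERG at 0.0373 and 0.340 TPM and STAB2 at 0.0923 and 0 TPM. CDH5, the cadherin of endothelial junctions, was at 0.0787 and 0.0520 TPM, and LYVE1 and CLEC4G were listed at 0. Of 9 hepatocyte markers, SERPINA1 rose from 3.73 to 21.8 TPM and the other 8, ALB among them, were below 1 TPM in both groups. Of 5 cholangiocyte markers, SOX9 rose from 23.6 to 34.6 TPM and KRT7 fell from 3.92 to 2.45 TPM. The part of such markers' cells in the rise of MERTK was not tested. In bulk libraries, a change in the number of cells of a kind and a change in RNA per cell cannot be told apart.

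TYRO3 stood at 21.7, 27.7 and 19.1 TPM in the DMSO libraries and at 24.8, 25.5 and 26.1 TPM in the compound 11 libraries. The groups overlapped, since DMSO replicate 2 was above every compound 11 library. The log2 fold change was 0.17 ± 0.12 (SE; 95% interval -0.10 to 0.43; limma, Benjamini-Hochberg adjusted p = 0.273). Without DMSO replicate 2 the log2 fold change was 0.31 and passed the threshold (adjusted p = 0.0201), so that library decides the call. The DMSO libraries of TYRO3 had an SD of 19.4% of their mean, the widest spread of any member in either group.

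**Figure D1:**
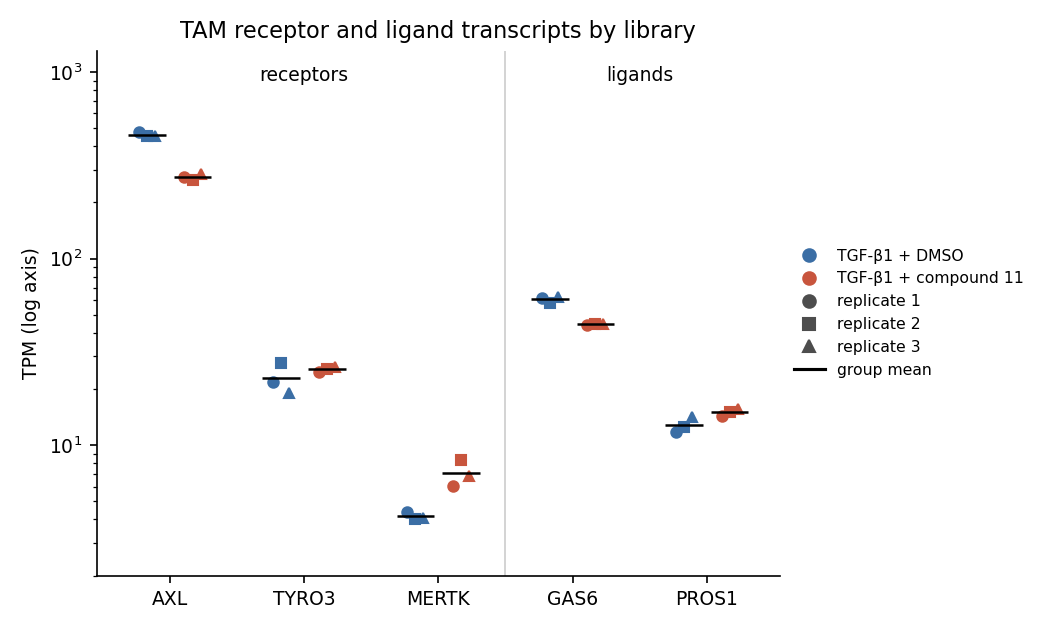
TPM on a log axis of each TAM gene in each of the 6 libraries, blue for TGF-β1 with DMSO and red for TGF-β1 with compound 11, with the marker shape giving the replicate and the line the group mean. AXL and GAS6 sit lower with compound 11 and MERTK higher, while the TYRO3 groups overlap.

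Of the ligands, GAS6 was the more abundant and fell. It stood at 61.6, 57.9 and 62.0 TPM in the DMSO libraries and at 43.8, 44.6 and 44.7 TPM in the compound 11 libraries. The groups did not overlap, and the compound 11 libraries had an SD of 1.09% of their mean. The mean fell from 60.5 TPM with an SD of 2.27 to 44.4 TPM with an SD of 0.482 (n = 3 per group), a log2 fold change of -0.44 ± 0.05 (SE; 95% interval -0.55 to -0.32; limma, Benjamini-Hochberg adjusted p = 9.74e-05).

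PROS1 encodes protein S, which is also the cofactor of activated protein C in blood. It stood at 11.8, 12.5 and 14.2 TPM in the DMSO libraries and at 14.4, 15.1 and 15.6 TPM in the compound 11 libraries. The lowest compound 11 library lay just above the highest DMSO library, so the groups were apart by little. The log2 fold change was 0.22 ± 0.09 (SE; 95% interval 0.01 to 0.42), and it did not pass the threshold (limma, Benjamini-Hochberg adjusted p = 0.0808, unadjusted p = 0.0438). Without DMSO replicate 3, the highest DMSO library, it was 0.29 and passed (adjusted p = 0.0378).

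Thus 3 of the 5 members passed the threshold, 2 lower and 1 higher, where 49.6% of all tested genes passed, 24.3% lower and 25.3% higher. A share of this size is near the background, so the count itself sets the family apart from no other genes. The groups of libraries did not overlap for 4 members, where 57.8% of tested genes did so. The median log2 fold change was 0.17 over the members and 0.00 over all tested genes.

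**Figure D2:**
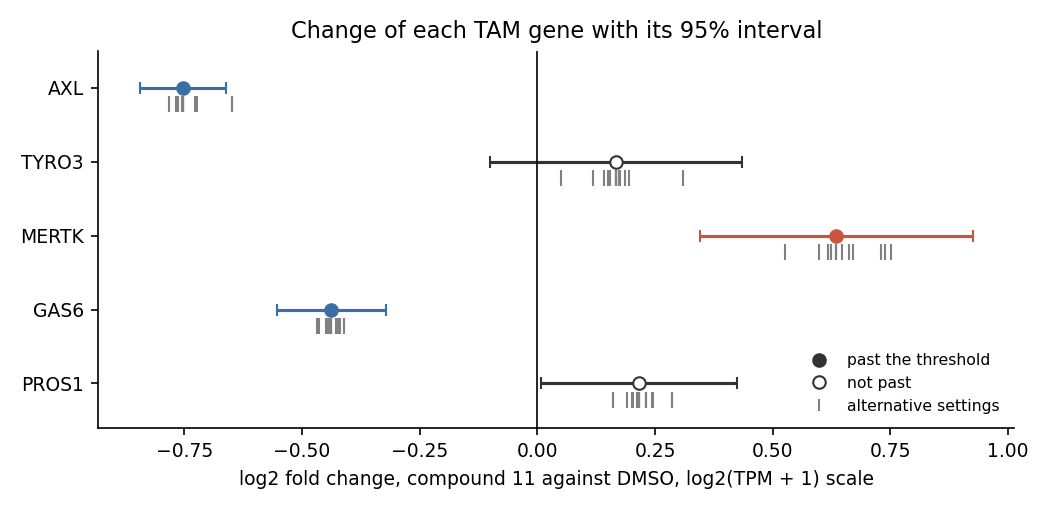
Log2 fold change of each TAM gene with compound 11 against DMSO on the log2(TPM + 1) scale, with its 95% interval from limma; blue is lower, red higher and open circles did not pass the threshold, and the grey ticks are the values under the alternative settings. AXL at -0.75, GAS6 at -0.44 and MERTK at 0.64 kept their sign under every setting run.

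The order of the levels was the same in both groups, AXL above GAS6, TYRO3, PROS1 and MERTK, and no neighbours in that order had overlapping libraries. Each ratio between neighbours was smaller with compound 11. AXL was 7.63 times GAS6 in the DMSO libraries and 6.16 times in the compound 11 libraries, GAS6 was 2.65 and 1.74 times TYRO3, TYRO3 was 1.78 and 1.70 times PROS1, and PROS1 was 3.08 and 2.12 times MERTK.

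AXL made up a smaller share of the receptor transcripts in every compound 11 library than in any DMSO library. The summed level of the 3 receptors went from 488 ± 14.3 to 306 ± 10.9 TPM. AXL made up 94.5% ± 0.884 of that sum in the DMSO libraries and 89.4% ± 0.674 in the compound 11 libraries. TYRO3 went from 4.67% ± 0.901 to 8.33% ± 0.241, and MERTK from 0.853% ± 0.0177 to 2.32% ± 0.434 (SD, n = 3 per group). For each of these shares the groups of libraries did not overlap. TYRO3 itself, at 22.8 and 25.5 TPM, did not pass the test, and its share is taken of a sum that fell with AXL. AXL thus remained by far the main TAM receptor transcript under both conditions.

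Among the ligand transcripts the share of GAS6 was lower in every compound 11 library. Their summed level went from 73.3 ± 2.89 to 59.4 ± 1.09 TPM. GAS6 made up 84.0%, 82.2% and 81.4% of it in the DMSO libraries and 75.3%, 74.7% and 74.1% in the compound 11 libraries. The log2 ratio of GAS6 to PROS1 went from 2.24 ± 0.13 to 1.56 ± 0.05.

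Ligand and receptor levels were also set against each other. The log2 ratio of GAS6 to AXL went from -2.93 ± 0.06 to -2.62 ± 0.06, since AXL fell further than GAS6, and under quantile normalization this difference shrank from 0.31 to 0.18. The log2 ratio of AXL to MERTK went from 6.79 ± 0.02 to 5.28 ± 0.27, a difference of -1.51, and that of AXL to TYRO3 from 4.35 ± 0.28 to 3.42 ± 0.05. The log2 ratio of PROS1 to AXL went from -5.17 ± 0.17 to -4.19 ± 0.06. In exact two-sided permutation tests over the 6 libraries, each of the 9 shares and ratios gave p = 0.1, also after Benjamini-Hochberg adjustment over the 9, which is the smallest value that 3 against 3 libraries allow.

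**Figure D3:**
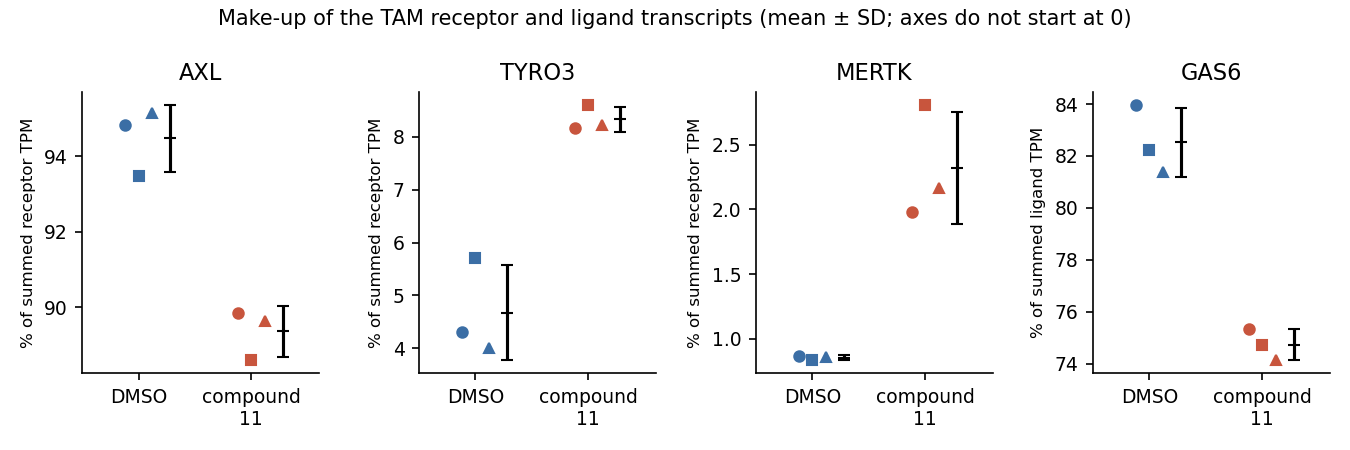
Percent of the summed receptor TPM made up by AXL, TYRO3 and MERTK, and percent of the summed ligand TPM made up by GAS6, in each library, with the group mean and SD in black; the axes do not start at 0. The means were 94.5% and 89.4% for AXL, 0.853% and 2.32% for MERTK and 82.5% and 74.7% for GAS6, in DMSO and compound 11 libraries in turn, and no panel's groups overlap.

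AXL was the most abundant of all 58 receptor tyrosine kinases in both groups. It made up 31.96% of their summed TPM in the DMSO libraries and 22.7% in the compound 11 libraries. FGFR1, a fibroblast growth factor receptor, came next in the DMSO libraries at 148 TPM and fell to 93.3 TPM, and MET, the receptor for hepatocyte growth factor, fell from 141 to 121 TPM. EGFR, the receptor for epidermal growth factor, rose from 92.6 to 116 TPM and EPHA2, a receptor for ephrins, from 71.8 to 91.8 TPM. TYRO3 ranked 15 of the 58 in the DMSO libraries and 14 in the compound 11 libraries.

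Of the 55 receptor tyrosine kinases outside the TAM family, 30 were tested, and 10 rose, 11 fell and 9 did not pass (median log2 fold change -0.05). Of all tested genes 25.3% were higher and 24.3% lower. Those with the smallest adjusted p were NTRK3, a neurotrophin receptor, which fell from 6.62 to 1.16 TPM, EPHB1, an ephrin receptor, which rose from 5.97 to 21.5 TPM, PDGFRB, a receptor for platelet-derived growth factor, which went down from 26.5 to 9.75 TPM, and FGFR1. The fall of AXL, at a log2 fold change of -0.75, was close in size to that of FGFR1 at -0.67.

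**Figure D4:**
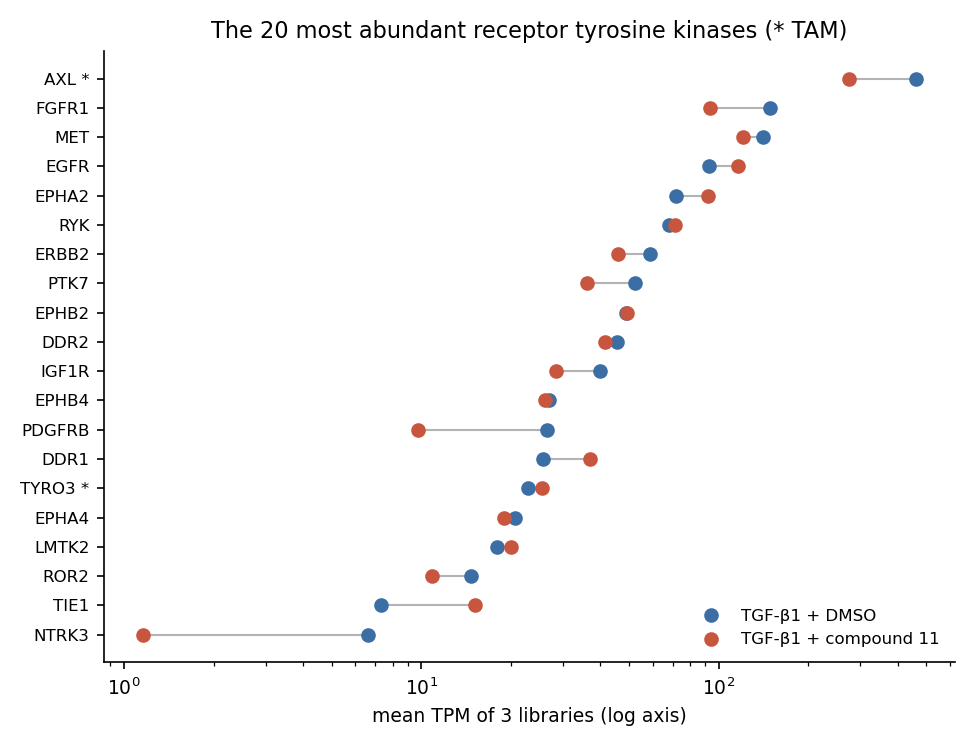
Mean TPM of 3 libraries, on a log axis, of the 20 receptor tyrosine kinases with the highest level in the DMSO libraries, blue for DMSO and red for compound 11, with TAM receptors starred. AXL stays at the top at 461 and 273 TPM, and TYRO3 at 22.8 and 25.5 TPM is 15 of the 20 by its level in the DMSO libraries.

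GAS6 and protein S work only after gamma-carboxylation, and the carboxylase and a vitamin K reductase fell. GGCX, the gamma-glutamyl carboxylase, went from 40.7 ± 2.88 to 31.6 ± 0.985 TPM (log2 fold change -0.35 with an SE of 0.07, limma adjusted p = 0.00217). VKORC1, which regenerates reduced vitamin K, went from 182 to 152 TPM (log2 fold change -0.26) and NQO1, a quinone reductase, from 79.7 to 54.8 TPM. Of the 17 genes on the list of the vitamin K cycle and other Gla proteins, 7 were tested, 4 fell, 2 rose and 1 did not pass (median log2 fold change -0.26). Over all tested genes 24.3% were lower and 25.3% higher. The 1 that did not pass was VKORC1L1, at 65.6 and 63.9 TPM (limma adjusted p = 0.585). MGP, matrix Gla protein, an inhibitor of calcification, fell from 6.63 to 0.805 TPM, and PRRG4, a transmembrane Gla protein, rose from 2.87 to 6.998 TPM. F7, F9, PROC and PROZ, Gla proteins of clotting that the liver parenchyma makes, were listed at 0 in all 6 libraries.

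Genes for binding partners of the receptors moved in both directions. Of 19 listed, 17 were tested, 9 rose, 3 fell and 5 did not pass (median log2 fold change 0.16), where 25.3% of all tested genes were higher and 24.3% lower. The difference from that background was not tested for this or any other list. CBLB, a ubiquitin ligase that acts on TAM receptors in mouse natural killer cells, rose from 32.7 ± 4.26 to 99.9 ± 11.3 TPM. IFNAR1, an interferon receptor subunit through which TAM receptors dampen inflammation in mouse dendritic cells, rose from 55.3 to 74.7 TPM. SHC1, an adaptor of receptor tyrosine kinases, fell from 319 to 249 TPM and VAV2, a guanine nucleotide exchange factor, from 41.4 to 25.3 TPM.

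Genes of the machinery that cleaves TAM receptors also went both ways. ADAM10 and ADAM17 shed their extracellular parts, and gamma-secretase cuts the remaining stub. Of 11 genes, all tested, 6 rose, 2 fell and 3 did not pass (median log2 fold change 0.34), beside 25.3% higher and 24.3% lower over all tested genes. RHBDF2 and RHBDF1, the iRhom proteins that bring ADAM17 to the cell surface, rose from 17.6 to 38.5 and from 19.1 to 33.5 TPM, and ADAM17 itself rose from 21.8 to 28.3 TPM. TIMP3, the tissue inhibitor of ADAM17, fell from 49.9 ± 1.57 to 17.5 ± 0.356 TPM. ADAM10 was at 202 and 183 TPM and did not pass (adjusted p = 0.207), although it did with the replicate number as a block (adjusted p = 0.0175) and without DMSO replicate 2 (adjusted p = 0.0323). APH1A, a gamma-secretase subunit, fell from 148 to 125 TPM.

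Exposed phosphatidylserine is the surface to which both ligands bind. Of 13 genes for its exposure and flipping, 10 were tested, 5 rose, 2 fell and 3 did not pass (median log2 fold change 0.12). Across all tested genes 25.3% were higher and 24.3% lower. ATP8B1, a lipid flippase, fell from 128 to 44.3 TPM, PLSCR1 and PLSCR4, members of the phospholipid scramblase family, rose from 28.7 to 46.0 and from 12.5 to 21.0 TPM, and PLSCR3 of the same family fell from 87.8 to 58.0 TPM. ANO6, a calcium-activated scramblase, rose 1.12-fold, a call lost with variances fitted without a trend (adjusted p = 0.0593), without DMSO replicate 2 (adjusted p = 0.0521) and without compound 11 replicate 1 (adjusted p = 0.0516).

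Of 22 genes for the uptake of apoptotic cells, 14 were tested, 5 rose, 7 fell and 2 did not pass (median log2 fold change -0.03). The background over all tested genes was 25.3% higher and 24.3% lower. ITGB5 and ITGB3, integrin subunits that pair with ITGAV, rose from 66.2 to 130 and from 18.5 to 30.8 TPM. ABCA1, a lipid exporter, fell from 23.3 to 7.55 TPM and CALR, the chaperone calreticulin, from 1101 to 940 TPM. Of the other MERTK or TYRO3 ligands, LGALS3, galectin-3, was at 53.1 and 46.8 TPM and TUB, tubby, at 4.01 and 3.17 TPM, and neither passed (limma, Benjamini-Hochberg adjusted p = 0.0668 and 0.236). LGALS3 passed under quantile normalization (adjusted p = 0.0336), without DMSO replicate 1 (0.0348) and without compound 11 replicate 1 (0.0312).

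Protein S has its partners in clotting, and only 3 of those 9 genes were tested, 1 higher, 1 lower and 1 that did not pass (median log2 fold change -0.14). For all tested genes the shares were 25.3% higher and 24.3% lower. TFPI, the inhibitor of the tissue factor pathway for which protein S is a cofactor, rose from 18.1 ± 1.43 to 25.8 ± 4.03 TPM. PROCR, the endothelial protein C receptor, was at 47.9 and 43.4 TPM and did not pass (limma, Benjamini-Hochberg adjusted p = 0.1003), but did under quantile normalization (adjusted p = 0.0493) and without compound 11 replicate 1 (adjusted p = 0.0282). F8, clotting factor VIII, went from 6.35 to 4.53 TPM (adjusted p = 0.0339), a call lost with no filter on low genes and in 4 of the 6 fits that left out a library. THBD, C4BPA, C4BPB and F5 were below 0.4 TPM in both groups.

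Transcription factors that have been reported at the AXL promoter went both ways. Of 13, all tested, 4 rose, 5 fell and 4 did not pass (median log2 fold change -0.11). Among all tested genes 25.3% were higher and 24.3% lower. HIF1A and EPAS1, the hypoxia-inducible factors, fell from 477 to 325 and from 75.0 to 54.0 TPM. FOSL1, an AP-1 subunit, rose from 272 to 691 TPM and its partner JUN fell from 182 to 153 TPM. YAP1 and WWTR1, the coactivators of the Hippo pathway, rose from 151 to 188 and from 21.9 to 32.5 TPM. Of the TEAD factors through which they act on DNA, TEAD1 and TEAD4 fell from 89.6 to 63.8 and from 38.4 to 29.1 TPM. TEAD2, at 15.3 and 14.1 TPM, and TEAD3, at 45.7 and 41.8 TPM, did not pass (limma, Benjamini-Hochberg adjusted p = 0.442 and 0.111). MZF1 rose from 2.70 to 4.59 TPM. SP1 and SP3, factors known to bind GC boxes, were at 46.4 and 47.5 TPM and at 56.3 and 59.3 TPM, and neither passed (limma, Benjamini-Hochberg adjusted p = 0.650 and 0.284).

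**Figure D5:**
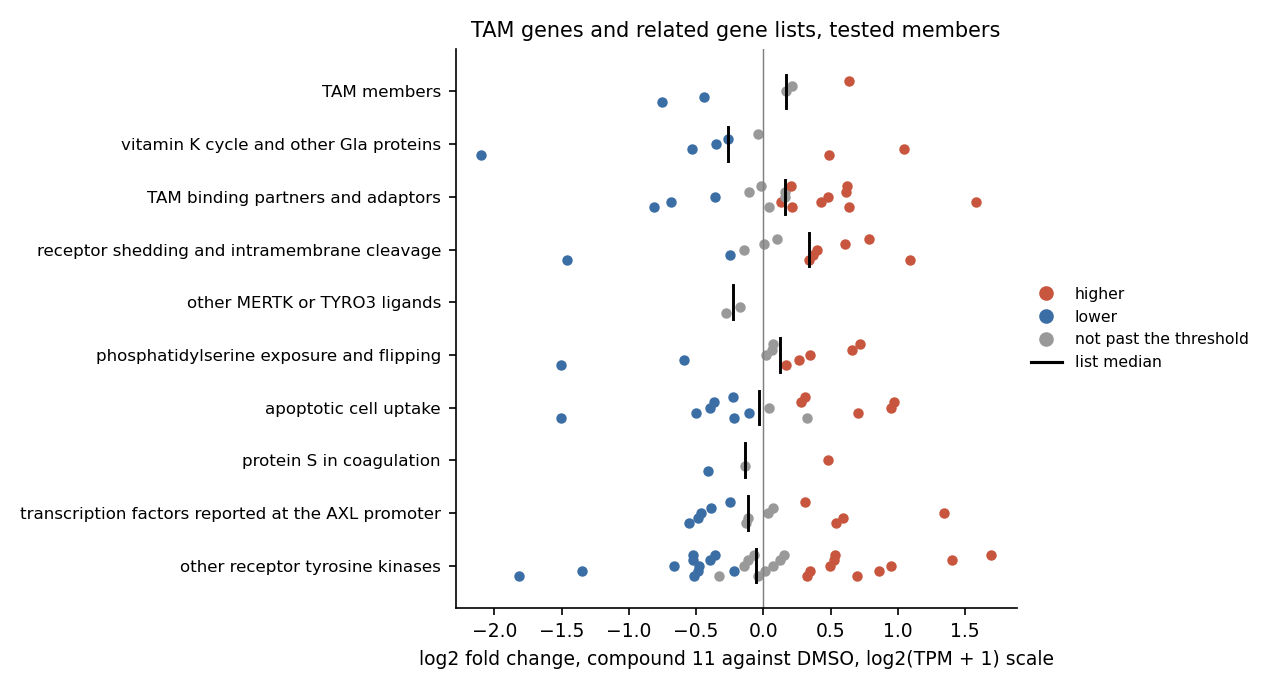
Log2 fold change with compound 11 against DMSO, on the log2(TPM + 1) scale, of each tested gene of the TAM family and of 9 related gene lists; red is higher, blue lower and grey did not pass the threshold, and the black line is the list's median. Every list with more than 2 tested members holds genes that rose and genes that fell, and the medians lie between -0.26 and 0.34.

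The nearest protein-coding genes on the chromosome were read beside AXL, MERTK, GAS6 and TYRO3, and they did not all follow these members. HNRNPUL1, which starts 730 bp beyond the end of AXL on the same strand, fell from 344 to 261 TPM (log2 fold change -0.40), while CYP2S1 on the other side was at 1.44 and 1.17 TPM and did not pass. TMEM87B, the gene after MERTK, rose from 23.0 to 45.5 TPM (log2 fold change 0.96), whereas ANAPC1 before it was at 58.7 and 58.3 TPM. Both neighbours of GAS6 rose while GAS6 fell, TMEM255B from 8.95 to 22.2 TPM and C13orf46 from 1.22 to 2.51 TPM. Beside TYRO3, MGA rose from 13.7 to 17.9 TPM and RPAP1 was at 13.9 and 14.1 TPM.

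The genes whose pattern over the 6 libraries was most like that of each member were found by the root mean square difference of log2(TPM + 1) values centred on the DMSO mean, among 10421 candidates. For AXL they were DPYSL2, MYH9 and FADS2, with differences of 0.0209 to 0.0255. For GAS6 they included RAP1GAP2 and C11orf98, at 0.0142 and 0.0203. For PROS1 they were CBFA2T2, BMP2K and CLMP, at 0.0240 to 0.0309. The nearest genes lay further off for TYRO3, where ENGASE, UBE2B and TOM1 were at 0.0617 to 0.0644, and for MERTK, where CCNL1, ABHD16B and BDH1 were at 0.0677 to 0.0849.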

How the data were processed

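Total RNA of LX-2 cells was extracted with TRIzol and sequenced from Illumina TruSeq libraries, per the labels' protocols. Bowtie 0.12.2 is named, per the submitters' processing notes, as are mm8 and GRCh38.p12, with no role for either build. For the counter, annotation and strand setting the sources used here give nothing. The deposited columns are headed FPKM, per the file headers, but each sums to 1000000 over the 20332 genes, so the values deposited by the authors are taken as TPM, which keep no depth.

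The 12067 genes that reached 1 TPM in 3 or more of the 6 libraries were tested as log2(TPM + 1) with limma 3.58.1 in R 4.3.3, comparing the groups without a block. Variances were moderated towards a trend over the mean, tests were two-sided and p-values carry the Benjamini-Hochberg adjustment. Shares and ratios were tested by exact permutation (SciPy 1.17.1). The design had allowed for FPKM, and the same test was used. The fit was checked on simulated data. The members and lists were chosen with earlier results of these data known. Genes named from each list are up to 4 past the threshold with the smallest adjusted p and 2 with the highest mean. Added are the 5 receptor tyrosine kinases highest in DMSO and 3 genes nearest in pattern per member. ADAM17, VKORC1L1, TEAD1, TEAD2, TEAD3, TEAD4, MZF1, YAP1, WWTR1, SP1, SP3, the chromosomal neighbours, marker genes and genes listed near 0 fall outside that rule and were named after their values were seen. Some genes that the rule names are not reported here.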

Additional observations from a re-analysis of the deposited data

How the results depend on the processing

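The calls of AXL, GAS6 and MERTK held under all 15 alternatives, with log2 fold changes of -0.78 to -0.65 (adjusted p 2.89e-07 to 0.000103), -0.47 to -0.41 (6.26e-05 to 0.000831) and 0.53 to 0.75 (0.00227 to 0.0105). The alternatives were other pseudocounts (0.1 and 0.01), filters, scalings and variances, a replicate block, and each library left out. Leaving out 1 library at a time gave 0.050 to 0.31 for TYRO3 and 0.16 to 0.29 for PROS1. Genes past the threshold numbered 5984, and 5153 to 6226 under the alternatives. The median of all tested genes moved by less than 0.1 in log2 under every scaling. With a mean of at least 5 TPM, 13 receptor tyrosine kinases outside the family passed instead of 21, since fewer were tested. With no filter on low genes, 1 instead of 2 genes of protein S in coagulation passed, and leaving out 1 library gave 1 to 2. Of the other MERTK or TYRO3 ligands, 1 instead of 0 passed under quantile normalization, and 0 to 1 with a library left out. In the limma fit 1 of them, LGALS3, had an unadjusted p under 0.05. The difference in the log2 ratio of GAS6 to AXL was 0.18 under quantile normalization, and leaving out 1 library gave 0.28 to 0.34. The cause of these changes was not tested. Correlations of deviations between libraries with the same replicate number were 0.0794, 0.149 and 0.0663, so the numbers were not taken to pair the libraries, although every library correlated best with its own number. With the replicate block 6226 genes passed, and the log2 fold changes of the members were the same, with adjusted p of 6.01e-06 for AXL, 0.000351 for GAS6, 0.00591 for MERTK, 0.0609 for PROS1 and 0.225 for TYRO3. Depth is unknown, so the counting error of MERTK, the lowest member, cannot be given.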
